A study of Mus musculus with 10 samples.

Results

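The Hox cluster genes were represented by 48 of the 45265 probe sets on the arrays of this series. A probe set is a group of short oligonucleotides that together read one transcript. Members were all probe sets whose platform annotation gave exactly 1 gene symbol, and that symbol Hoxa, Hoxb, Hoxc or Hoxd followed by a paralogue number. The MOE430A array held 37 of them among 22690 probe sets and the MOE430B array 11 among 22575. Together they covered 33 of the 39 Hox genes in the RefSeq gene table, with 31 genes on MOE430A, 9 on MOE430B and 7 on both.

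Hox genes code for homeodomain transcription factors and lie in 4 clusters on different chromosomes. Within a cluster the genes with low paralogue numbers are used earlier and more anteriorly, and those with high numbers later and more posteriorly. In the mouse embryo the clusters are first transcribed in the primitive streak, after the stage sampled here, and until then Polycomb complexes hold them silent. Outside the embryo proper, Hoxa9, Hoxa10 and Hoxa11 also pattern the female reproductive tract, and Hoxa10 and Hoxa11 act in the uterine stroma during decidualisation, its change into the tissue around the implanted embryo.

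RNA came from embryonic day 5.5 mouse embryos of B6SJLF1×CerlP-GFP matings, untreated, in which a fluorescent reporter labelled the anterior visceral endoderm, a signalling tissue of the future head side. The anterior distal fragment (Ad) held this fluorescent tissue and the epiblast beneath it. The posterior proximal fragment (Pp) was a triangle of proximal visceral endoderm and epiblast from the opposite side, reaching up to the boundary with the extraembryonic region. Both fragments came from embryos whose fluorescent tissue lay lateral to the distal tip, and intact embryos of the same matings gave the whole-embryo RNA. Of the 10 arrays, each type took 2 from Ad, 2 from Pp and 1 from the whole embryo, with Ad and Pp replicates 1 and 2 on MOE430A and 3 and 4 on MOE430B. The study sought genes with more RNA in Ad, and the whole embryo was hybridised for normalization. Whether replicates were separate embryos or pools is not given in the sources used here, so a p-value covers the spread among these samples, which may be technical. All RNA had been linearly amplified before hybridisation.

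Across all probe sets, Spearman's rho between the Ad arrays was 0.995 on MOE430A and 0.985 on MOE430B, and between the Pp arrays 0.990 and 0.976. Between a fragment and the whole embryo it was 0.966 to 0.972 and 0.959 to 0.969. The labels were checked against marker genes on MOE430A. Of 8 anterior visceral endoderm markers, 4 passed the test as higher in Ad than in Pp. In either direction 0.169% of all probe sets tested passed. The summed signal of the 8 was 19009 to 23542 in Ad and 6738 to 7355 in Pp. Levels are the deposited array signals in arbitrary units. Since a probe set's signal depends on its oligonucleotides, signals were compared between arrays and not between genes.

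5 neighbouring genes carried the differences described below: Hoxa9, Hoxa10 and Hoxa11, which follow each other on chromosome 6, and Hoxd9 and Hoxd10, neighbours on chromosome 2. The 250 bases before the annotated start of each are shown because these members moved together. They were taken from the RefSeq promoter table of build GRCm38.p6, which held a window for 19 of the 33 member genes. The windows are chr6:52227371-52227620 for Hoxa9, chr6:52240855-52241104 for Hoxa10 and chr6:52245811-52246060 for Hoxa11, all on the minus strand. Those of the other pair are chr2:74697513-74697762 for Hoxd9 and chr2:74691641-74691890 for Hoxd10, both on the plus strand. They are printed 5′ to 3′ along the gene, with capitals on any match to a motif searched.
Hoxa9: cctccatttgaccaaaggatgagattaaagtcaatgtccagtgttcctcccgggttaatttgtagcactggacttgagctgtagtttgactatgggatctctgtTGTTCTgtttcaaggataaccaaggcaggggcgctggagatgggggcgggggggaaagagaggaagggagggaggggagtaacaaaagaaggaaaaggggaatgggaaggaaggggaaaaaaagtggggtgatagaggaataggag
Hoxa10: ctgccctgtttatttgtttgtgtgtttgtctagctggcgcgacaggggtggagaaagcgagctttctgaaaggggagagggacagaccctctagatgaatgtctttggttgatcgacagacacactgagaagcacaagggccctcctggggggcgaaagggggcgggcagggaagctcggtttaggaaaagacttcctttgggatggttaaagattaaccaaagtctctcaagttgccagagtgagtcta
Hoxa11: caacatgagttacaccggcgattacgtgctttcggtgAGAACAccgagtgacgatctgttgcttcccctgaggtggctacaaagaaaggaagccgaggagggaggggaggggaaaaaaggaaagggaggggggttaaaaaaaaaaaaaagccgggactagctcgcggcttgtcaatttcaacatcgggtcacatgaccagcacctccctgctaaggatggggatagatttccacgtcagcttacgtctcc
Hoxd9: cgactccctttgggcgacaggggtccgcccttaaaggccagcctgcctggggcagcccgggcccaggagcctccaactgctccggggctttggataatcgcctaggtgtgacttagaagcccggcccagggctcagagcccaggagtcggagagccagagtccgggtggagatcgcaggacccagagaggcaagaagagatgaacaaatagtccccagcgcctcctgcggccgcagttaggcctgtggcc
Hoxd10: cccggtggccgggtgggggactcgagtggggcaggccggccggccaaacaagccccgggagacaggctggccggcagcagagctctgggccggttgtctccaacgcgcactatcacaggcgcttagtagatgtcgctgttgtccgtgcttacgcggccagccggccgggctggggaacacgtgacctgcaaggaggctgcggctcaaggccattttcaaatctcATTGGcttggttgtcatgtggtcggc
The 4 motifs, each sought on both strands, were the TATAAA sequence of the TATA box, the CCAAT box, the half-site of steroid hormone receptors AGAACA and the TTTATG core that Cdx and posterior Hox proteins bind. AGAACA was found once in the Hoxa9 window and once in the Hoxa11 window, and in 16.1% of all 32851 windows of this length. The CCAAT box was found in the Hoxd10 window and in 33.9% of all windows. TATAAA and TTTATG were in 0 of the 5 windows, and in 12.4% and 10.8% of all windows. The Hoxa9 window had 3 CpG dinucleotides, that of Hoxa10 had 7, those of Hoxa11 and Hoxd9 had 13 each and that of Hoxd10 had 20, against a median of 6 over all windows and of 12.5 over 24 Hox windows. A match here describes letters only.

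On MOE430A, 6 probe sets of these 5 genes were higher in the whole embryo than in the fragments, and among the fragments they varied little. No Hox probe set passed the test between Ad and Pp. For the other 31 Hox probe sets, which cover 26 genes, the whole-embryo signal was 0.848 to 1.37 times the fragment mean. The whole embryo was a single array, assumed in the test to vary like the fragments. In bulk RNA, fewer cells of a type and less RNA per cell cannot be told apart.

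The test was limma on log2 of the signal plus a pseudocount, over all probe sets whose mean lay above the 40th percentile of the array type, equal to a signal of 464 on MOE430A. A call was a Benjamini-Hochberg adjusted p under 0.05 over all probe sets tested. Of the 37 Hox probe sets, 16 (15 genes) passed this filter. Hoxa10 passed only through its whole-embryo array, so the count of calls among the 16 is not independent of the filter, and a fit of all probe sets with no filter is given beside it. In fragments against the whole embryo, 4 of the 16 were called lower in the fragments, where 5.19% of all probe sets tested were. None was called higher, where 4.60% of all probe sets were. Leaving out 1 array moved these background counts: against 1328 calls over all probe sets in either direction, 302 were made when Ad replicate 1 was omitted, 274 when Ad replicate 2 was, 3095 when Pp replicate 1 was and 3492 when Pp replicate 2 was. The Hox calls were 3, 3, 4 and 5 in the same order. With no filter 6 of 37 were called lower, against 4.15% of all probe sets. The median difference was near that of all probe sets in both fits, at -0.00 (log2) over the 16 against 0.05 over all tested, and at 0.03 over the 37 against 0.04 over all, so the calls were a few members far from a flat remainder.

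Hoxa10, a regulator of uterine receptivity and of limb and trunk patterning, read 357 and 392 on the Ad arrays and 411 and 398 on the Pp arrays, against 1887 in the whole embryo (probe set 1431475_a_at). The 4 fragment arrays lay close together and none approached the whole embryo. The difference between fragments and whole embryo was -1.67 on the log2 scale (95% interval -1.86 to -1.47, adjusted p = 5.1e-04). The mean of the fragments, 389 ± 23.0 (SD, n = 4), lay below the filter signal, so the size depends on the pseudocount, and it was -2.18 with none. Ad against Pp differed by -0.14 (-0.31 to 0.04, adjusted p = 0.502).

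Hoxa11, which acts in the uterine stroma, kidney and distal limb, read 644 and 683 in Ad, 736 and 619 in Pp and 2073 in the whole embryo (1420414_at). The Ad values lay inside the range of the Pp values. The fragments, at 670 ± 50.9 (SD, n = 4), were 2.40-fold lower than the whole embryo on the scale with the pseudocount (log2 -1.26, -1.49 to -1.03, adjusted p = 0.00149). Between Ad and Pp the difference was -0.09 (-0.29 to 0.12, adjusted p = 0.702).

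Hoxa9, which lies beside Hoxa10 in the cluster, had 2 probe sets, which differed in the size of the change. The brighter, 1421579_at, read 1646 and 1587 in Ad, 1677 and 1748 in Pp and 2362 in the whole embryo. Its fragments were 1.29-fold lower (log2 -0.37, adjusted p = 0.0383), the smallest difference called among the Hox probe sets, and the call was lost without Ad replicate 1 (adjusted p = 0.135) or Ad replicate 2 (0.161). The dimmer, 1455626_at, was below the filter and was chosen for naming after its values were seen. It read 205 and 214 in Ad, 234 and 212 in Pp and 1680 in the whole embryo. Its difference in the fit with no filter was -1.99 (adjusted p = 8.0e-04), and -2.87 without the pseudocount.

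Hoxd9, a posterior gene used in the trunk and limb, read 745 and 678 in Ad, 633 and 661 in Pp and 1489 in the whole embryo (1419126_at). Both Ad signals were above both Pp signals as deposited, but on the centred log2 scale the groups overlapped. There was no call between them (log2 0.03, -0.14 to 0.20, adjusted p = 0.876). Against the whole embryo the fragments, at 679 ± 47.5 (SD, n = 4), were 1.77-fold lower (log2 -0.83, -1.02 to -0.63, adjusted p = 0.00383).

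Hoxd10, its neighbour, likewise fell outside the naming rule and was chosen after its values were seen. It read 136 and 167 in Ad, 136 and 143 in Pp and 1212 in the whole embryo (1418606_at). All 4 fragment values lay below the filter signal and the whole-embryo value above it. With no filter the difference was -1.83 (adjusted p = 0.00103), and -2.97 without the pseudocount.

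**Figure D1:**
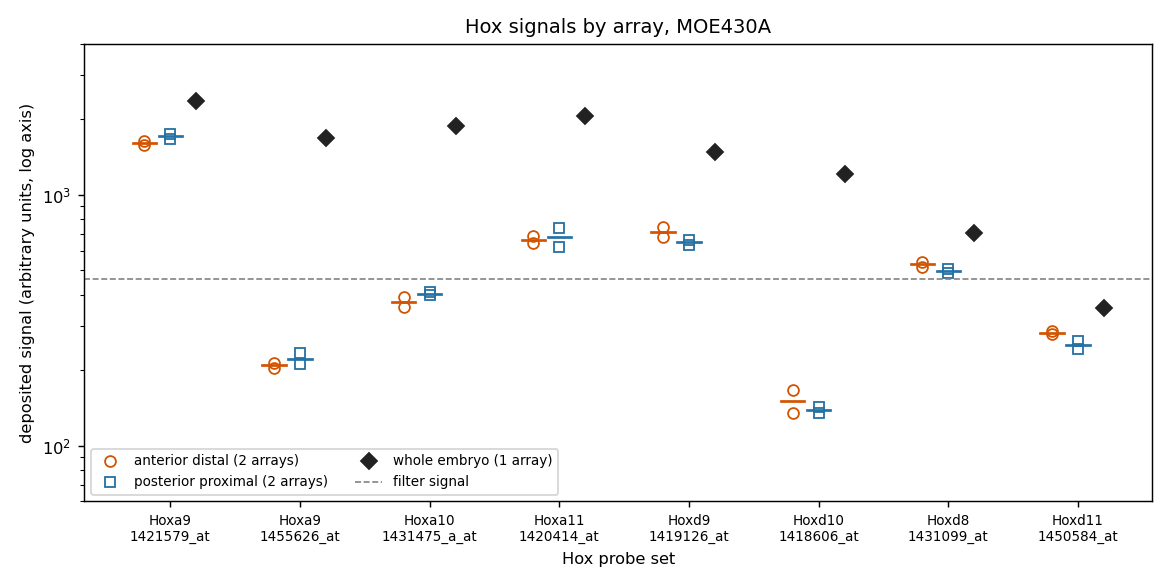
Deposited signal (arbitrary units, log axis) of 8 Hox probe sets on the 5 MOE430A arrays, with open circles for the 2 Ad arrays, open squares for the 2 Pp arrays, short lines for their means, a diamond for the whole embryo and a dashed line at the filter signal of 464. The whole embryo lies above all 4 fragment arrays in each of the 8, and Hoxd8 and Hoxd11, which were not called, show the smallest gaps beside the brighter Hoxa9 probe set.

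4 probe sets had a whole-embryo value at least 2-fold above all 4 fragment arrays on the log2 scale with the pseudocount: those of Hoxa10, Hoxa11 and Hoxd10 and the dimmer one of Hoxa9. The same held for 0.977% of all MOE430A probe sets. 2 further genes of the Hoxd cluster leaned the same way and were not called. Hoxd8 read 540 and 517 in Ad, 491 and 509 in Pp and 703 in the whole embryo (log2 -0.24, adjusted p = 0.104), and passed the threshold only when Pp replicate 2 was left out. Hoxd11 was below the filter, at 243 to 286 in the fragments against 354 in the whole embryo (log2 -0.16 with no filter, adjusted p = 0.192).

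The terminal genes of these clusters did not share the pattern. Hoxa13, which specifies distal limb and urogenital structures, read 285 to 322 in the fragments against 332 in the whole embryo (log2 0.00 with no filter). Hoxd12 read 240 to 256 in the fragments against 210 in the whole embryo (log2 0.18, adjusted p = 0.146), and Hoxd13 read 150 to 190 and 168. In paralogues 9 to 13 of the Hoxa and Hoxd clusters, 10 probe sets of 9 genes, 6 were called lower in fragments with no filter. Over all probe sets 4.15% were. The whole embryo was above all fragments in 8 of the 10, and in 35.3% of all probe sets. This joined group was not planned and holds all 6 Hox calls, so its counts follow from how it was formed.

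By cluster, the whole embryo exceeded all 4 fragment arrays in 9 of 12 Hoxa, 1 of 10 Hoxb, 2 of 8 Hoxc and 5 of 7 Hoxd probe sets. In all 37 it was above in 17 (45.9%), within the fragments' range in 17 and below in 3, and over all MOE430A probe sets it was above in 35.3% and below in 21.3%. Calls with no filter numbered 4 in Hoxa, 2 in Hoxd and 0 in Hoxb and Hoxc. By paralogue number, 0 of 12 probe sets of groups 1 to 4 and 0 of 11 of groups 5 to 8 were called. In groups 9 to 13 it was 6 of 14, where 4.15% of all probe sets were called lower. The whole-embryo signal was 0.924 to 1.19 times the fragment mean in groups 1 to 4 and 0.953 to 1.37 times in groups 5 to 8.

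**Figure D2:**
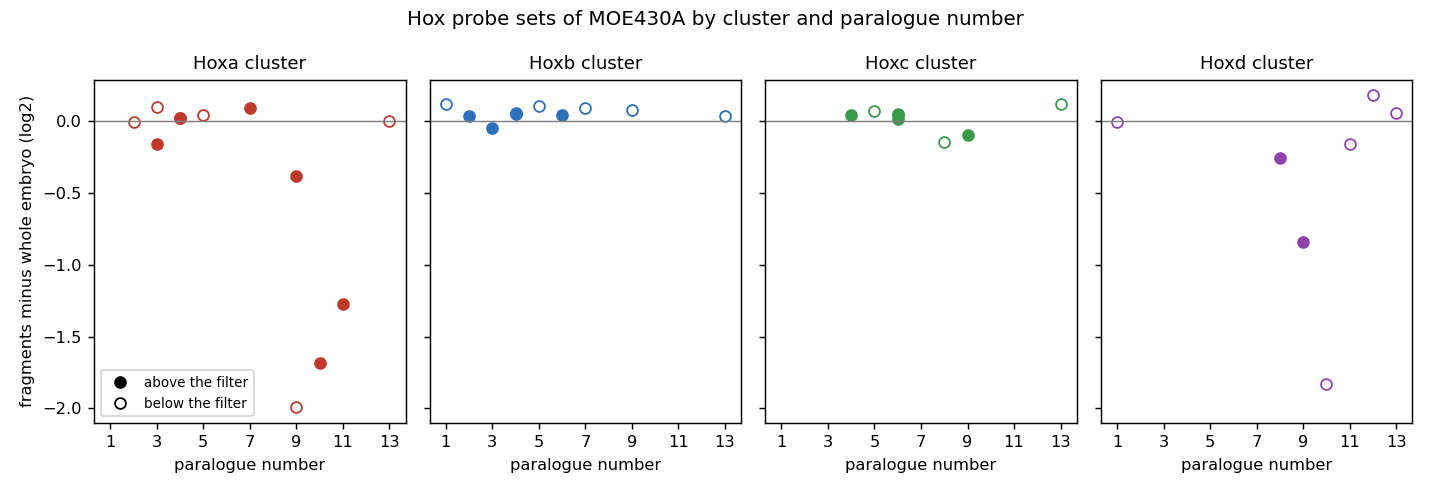
Difference between fragments and whole embryo (log2, no-filter fit) for the 37 Hox probe sets of MOE430A against paralogue number, 1 panel for each cluster, with filled points above the filter and open points below it. Points lie near 0 except for paralogues 9 to 11 of Hoxa and 9 and 10 of Hoxd, which reach -1.99 and -1.83.

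In the Hoxb and Hoxc clusters, 18 probe sets of 15 genes, the ratio of whole embryo to fragment mean had a median of 1.02 and ran from 0.924 to 1.36. Hoxc9, the paralogue of Hoxa9 and Hoxd9, had the highest signal among the Hoxc probe sets, with 1573 and 1469 in Ad, 1584 and 1546 in Pp and 1753 in the whole embryo (log2 -0.08, adjusted p = 0.532). Hoxb9 read 186 to 212 in the fragments against 195 in the whole embryo. Thus the whole embryo lay within the fragments' range for Hoxb9 and slightly above it for Hoxc9. Hoxc8, at 167 to 219 in the fragments against 265 in the whole embryo, had the highest ratio of these clusters and was not called with no filter (adjusted p = 0.238). Hoxc13 read 442 to 490 and 434, and Hoxb13 109 to 128 and 126.

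Anterior paralogues, which pattern the hindbrain and neck, were as flat. Hoxa3 (1452421_at), the brightest of groups 1 to 4, read 1514 and 1500 in Ad, 1577 and 1484 in Pp and 1811 in the whole embryo (log2 -0.14, adjusted p = 0.278). Hoxb4, the brightest of the Hoxb cluster, read 1242 and 1121 in Ad, 1232 and 1333 in Pp and 1237 in the whole embryo (log2 0.07, adjusted p = 0.632). The whole embryo was above all fragments for Hoxa3 and among them for Hoxb4. Hoxb1, normally among the first Hox genes transcribed, read 242 and 228 in Ad, 227 and 218 in Pp and 211 in the whole embryo, all below the filter signal. Hoxc6 (1427361_at), the brightest of groups 5 to 8, read 1091 and 1075 in Ad, 930 and 1026 in Pp and 1046 in the whole embryo (log2 0.06, adjusted p = 0.675). Hoxa5 on MOE430A read 39.1 to 52.2 in the fragments against 52.3 in the whole embryo.

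In Ad against Pp on MOE430A, 0 of the 16 Hox probe sets tested had an unadjusted p under 0.05, against 1593 of 13575 tested. Of the 16, 0 were called, where limma called 0.169% of all probe sets (either direction). That background of 23 calls rested on single arrays: it was 1 without Ad replicate 1, 3 without Ad replicate 2, 806 without Pp replicate 1 and 503 without Pp replicate 2, each fit assuming that the lone array left in its group varies like the other group's arrays. The Hox calls were 0 in all 4 of these fits, and 2 Hox probe sets had an unadjusted p under 0.05 without Pp replicate 1. The differences ran from -0.17 to 0.05 (log2), their 95% intervals from -0.36 to 0.23, and the adjusted p from 0.463 to 0.953. With no filter 0 of 37 were called or had an unadjusted p under 0.05, with differences from -0.17 to 0.08. No member had Ad and Pp arrays at least 2-fold apart without overlap, a gap seen in 0.0575% of all probe sets. The median over the 16 was -0.09 against -0.03 over all probe sets tested, and -0.02 over the 16 when arrays were not centred. Largest was Hoxb4, at -0.17 (-0.36 to 0.02, adjusted p = 0.463). The intervals of the 16 did not reach the size of the difference between fragments and whole embryo for Hoxa10, Hoxa11 and Hoxd9. They cover the spread among these arrays, which may be technical, and cannot exclude a difference across embryos. Over the 4 fragment arrays the coefficient of variation of the 37 was 1.85% to 12.1% with a median of 5.72%, against a median of 7.38% over all MOE430A probe sets.

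**Figure D3:**
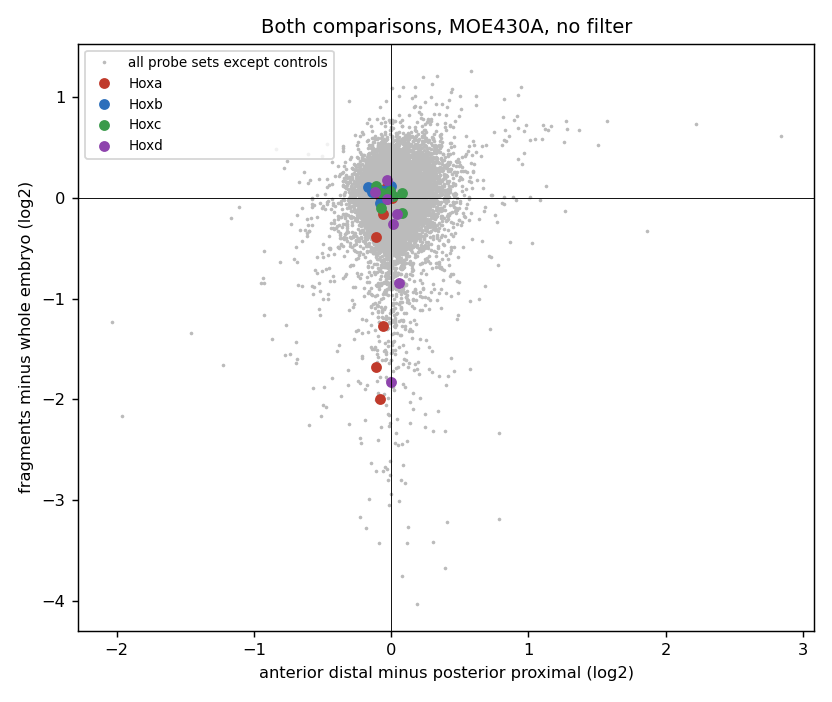
Difference between Ad and Pp (horizontal, log2) against the difference between fragments and whole embryo (vertical, log2) for all MOE430A probe sets except controls (grey) and the 37 Hox probe sets (coloured by cluster), from the fit with no filter. The Hox points stay between -0.17 and 0.08 on the horizontal axis and extend down to -1.99 on the vertical axis for Hoxa and Hoxd members only.

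The MOE430B array gave no call for any Hox probe set. Of its 11 members, 5 (4 genes) passed the filter, at a signal of 37.2, and 6 had a fragment mean below it. Between Ad and Pp 0 of 5 were called, where 0.111% of all probe sets were, with 95% intervals from -0.63 to 0.47. An unadjusted p under 0.05 was found for 0 of the 5, against 1400 of 13506 probe sets tested. Fragments against the whole embryo also gave 0 of 5, where 1.81% of all probe sets were lower and 0.407% higher, and 0 of 11 with no filter. Over all MOE430B probe sets the 15 calls between Ad and Pp became 0 without Ad replicate 3 or 4, 131 without Pp replicate 3 and 61 without Pp replicate 4, and the 299 against the whole embryo became 109, 101, 668 and 1183 in that order. The Hox calls were 0 in each of these fits, with 1 Hox probe set at an unadjusted p under 0.05 against the whole embryo without Pp replicate 3. No member met the 2-fold gaps, which 0.169% of all probe sets met between Ad and Pp and 1.21% with the whole embryo above. The brightest was Hoxa5 (1443803_x_at), at 403 and 358 in Ad, 374 and 341 in Pp and 375 in the whole embryo. Hoxa3 (1431392_at) read 146 and 167 in Ad, 185 and 181 in Pp and 143 in the whole embryo. Both its Pp values were above both Ad values (log2 -0.29, -0.63 to 0.05, adjusted p = 0.540). Hoxc10, the Hoxc paralogue of Hoxa10 and Hoxd10, read 60.2 and 50.9 in Ad, 60.6 and 64.3 in Pp and 72.4 in the whole embryo (log2 -0.27, adjusted p = 0.465). Hoxd13 read 44.3 and 41.8 in Ad, 38.9 and 50.4 in Pp and 32.3 in the whole embryo (log2 0.33, adjusted p = 0.381).

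Of the 5 genes higher in the whole embryo on MOE430A, Hoxa10 alone had a probe set on MOE430B, and it was not called. That probe set (1446408_at) read 5 and 1.94 in Ad, 0.96 and 5 in Pp and 1.06 in the whole embryo, at the bottom of the array's scale. Hoxd8 on MOE430B (1433638_s_at) was 1.77 to 4.76 in the fragments against 13.3 in the whole embryo, also below the filter (log2 -0.83 with no filter, adjusted p = 0.188).

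Transcripts from the clusters that are not members were read beside them. Hoxa11os, the antisense transcript of Hoxa11, had a MOE430A probe set at 79.3 and 88.9 in Ad, 87.0 and 75.7 in Pp and 397 in the whole embryo. It was below the filter and with no filter differed by -0.90 (log2, adjusted p = 0.00273), the direction of Hoxa11. Another Hoxa11os probe set, on MOE430B, read 14.5 to 19.1 in the fragments against 7.33 in the whole embryo. A MOE430A probe set shared by Hoxd4 and Hoxd3 read 2523 to 2953 in the fragments against 3324 in the whole embryo (log2 -0.17, adjusted p = 0.227 with no filter).

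The whole-embryo array also carried more RNA of decidual and uterine stroma genes. On MOE430A, 19 of 20 marker genes of that tissue were measured, and their summed signal was 9907 and 10701 in Ad, 9292 and 9279 in Pp and 37082 in the whole embryo. That is 3.79 times the fragment mean. For the 6 probe sets of Hoxa9 to Hoxa11, Hoxd9 and Hoxd10 the sum was 2.84 times the fragment mean, at 3732, 3721, 3826, 3781 and 10703. These 6 are the Hox probe sets called with no filter, so a high whole-embryo sum follows from their selection. Hoxa9 enters with 2 probe sets, while each marker gene enters with its brightest alone. Of the 13 markers that passed the filter, 8 were called lower in the fragments, where 5.19% of all probe sets tested were. None was called higher, where 4.60% were, and the median was -1.11 (log2). Prl8a2, Col1a1, Wnt4 and Bmp2 had fragment means of 331, 330, 305 and 332 and passed only through the whole-embryo array. The count of calls is therefore not independent of the filter. They included Prl8a2, a decidual prolactin, at 241 to 564 in the fragments against 6063 in the whole embryo (adjusted p = 0.00132), Col1a1, a stromal collagen (-2.92, adjusted p = 2.7e-04), and Wnt4, a decidual signal, at 305 ± 36.1 (SD, n = 4) and 2069. The fragment mean lay below the filter signal for 10 of the 19 and the whole-embryo value for 2. Among the defining genes, Prl3c1 read 94.5 and 812 in Ad, 96.9 and 86.9 in Pp and 4066 in the whole embryo. Ad replicate 2 thus stood above the other fragments for both prolactins. On MOE430B 8 of the 20 were measured. All 5 that passed the filter were called lower in the fragments, where 1.81% of all probe sets tested were. The sums over the 8 measured were 371 to 514 in Ad, 399 to 478 in Pp and 7516 in the whole embryo. The progesterone receptor gene Pgr was among those called, at 84.4 ± 10.9 (SD, n = 4) and 991 (adjusted p = 0.0015), while its MOE430A probe set was not called (adjusted p = 0.820). Esr1 was also called on MOE430B, at 55.1 ± 33.2 (SD, n = 4) and 1999 (adjusted p = 0.0129), and not on MOE430A (adjusted p = 0.280). The part of this tissue in the Hox result was not tested.

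Other cell types also shifted between fragments and whole embryo on MOE430A. The 10 extraembryonic ectoderm markers summed to 12588 and 12206 in Ad, 11307 and 18309 in Pp and 20636 in the whole embryo. Of the 10, 2 were called lower in the fragments, where 5.19% of all probe sets tested were. Pp replicate 2 was high in the sum of these markers. Of the ectoplacental cone markers, 1 of the 2 tested was called lower in the fragments, against the same share of 5.19%. Called higher in the fragments were 4 of 12 visceral endoderm, 5 of 8 anterior visceral endoderm and 6 of 8 tested epiblast markers. Over all probe sets tested this share was 4.60%. The sums of these 3 lists in the whole embryo were 0.817, 0.627 and 0.686 times the fragment mean. For the anterior visceral endoderm markers the sum was above the whole embryo in Ad and not in Pp: the sums were 23542 and 19009 in Ad, 7355 and 6738 in Pp and 8882 in the whole embryo. Lefty1, a Nodal antagonist, read 6489 and 4658 in Ad, 912 and 987 in Pp and 1398 in the whole embryo. Of 4 primitive streak and 3 blood and immune markers tested, 0 were called. The part of these differences in the Hox result was not tested.

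**Figure D4:**
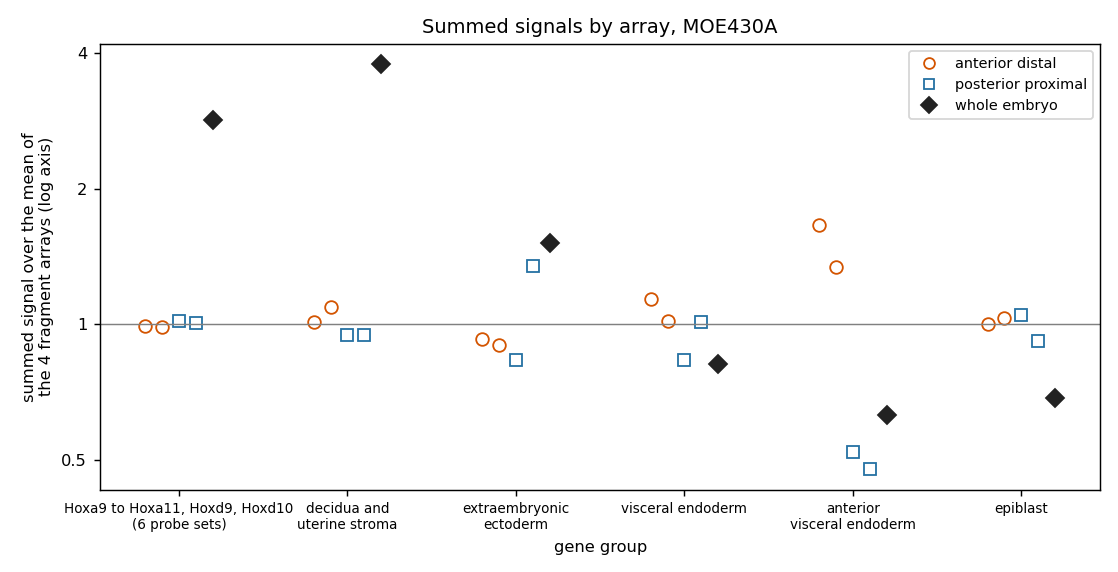
Summed MOE430A signal of the 6 Hox probe sets of Hoxa9 to Hoxa11, Hoxd9 and Hoxd10 and of 5 marker lists, each divided by the mean of the 4 fragment arrays (log axis), with a circle for each Ad array, a square for each Pp array and a diamond for the whole embryo. The whole embryo is at 2.84 for the Hox genes and 3.79 for decidua and uterine stroma, while the fragment arrays lie between 0.988 and 1.02 and between 0.947 and 1.09. The 6 Hox probe sets are those called with no filter, so their high ratio follows from their selection.

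The probe sets closest to Hoxa10 were found by Euclidean distance of centred log2 values over the 5 MOE430A arrays, after subtracting each probe set's mean. They were those of Lox, which cross-links collagen (distance 0.0140), Ccser2 (0.106), Anxa3 (0.112), Igfbp7 (0.112) and Slc44a2 (0.137). Lox read 597 ± 32.2 (SD, n = 4) in the fragments against 2560 in the whole embryo. Closest to Hoxa11 were Lbp (0.0884), Rpia (0.0905), Timp2 (0.103), Krtdap (0.112) and Cav1 (0.114). With the fragment arrays close together, this distance mostly ranks the gap to the single whole-embryo array. Only probe sets above the filter were searched. Ccser2, Anxa3, Timp2 and Krtdap, with fragment means of 339, 339, 387 and 441, passed it, like Hoxa10, only through the whole-embryo array.

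Genes that work with Hox proteins or control the clusters gave few calls on MOE430A. The TALE homeodomain proteins of the Pbx, Meis and Pknox families bind DNA together with Hox proteins. Of their 8 genes measured on MOE430A, 3 were tested and 0 called. Meis1, below the filter, read 177 and 165 in Ad, 133 and 166 in Pp and 348 in the whole embryo. Its MOE430B probe set differed by 0.03 (adjusted p = 0.949). Pbx4, Meis3, Pknox1 and Pknox2, also below the MOE430A filter, were not higher than all fragments in the whole embryo. On MOE430B 2 of 4 were called lower in the fragments, where 1.81% of all probe sets tested were. Pknox2 read 48.1 and 41.2 in Ad, 45.0 and 60.1 in Pp and 388 in the whole embryo (log2 -2.77, adjusted p = 0.00163), and its MOE430A probe set, below the filter, read 189 to 209 and 190. Meis2 read 195 and 170 in Ad, 203 and 180 in Pp and 444 in the whole embryo (log2 -1.21, adjusted p = 0.0233), while its MOE430A probe set differed by 0.05 (adjusted p = 0.767). For both genes the array types therefore gave different results.

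Of 12 ParaHox and Hox-linked homeobox genes on MOE430A, 6 were tested and 0 called. Cdx2, which activates posterior Hox genes in the embryo and marks extraembryonic ectoderm, read 1574 and 1689 in Ad, 1074 and 1784 in Pp and 1821 in the whole embryo. Evx1, which lies beyond the posterior end of the Hoxa cluster, read 385 and 460 in Ad, 590 and 601 in Pp and 417 in the whole embryo. Both its Pp values were higher, without a call (log2 -0.40, adjusted p = 0.216).

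Polycomb proteins, which keep Hox clusters silent, had 22 genes tested on MOE430A. Of these, 2 were called higher in the fragments, where 4.60% of all probe sets tested were, so the count says little about the list. Phc1, a subunit of Polycomb repressive complex 1, was at 5313 ± 824 (SD, n = 4) in the fragments against 2946 in the whole embryo (log2 0.87, adjusted p = 0.0289). Pcgf6, a subunit of a variant complex, was at 3474 ± 366 (SD, n = 4) and 2481 (log2 0.52, adjusted p = 0.0458). On MOE430B 1 of 9 was called lower in the fragments, where 1.81% of all probe sets tested were. It was Phc3, at 169 ± 28.8 (SD, n = 4) and 528 (log2 -1.61, adjusted p = 0.0141). Among trithorax genes and H3K27 demethylases, which oppose Polycomb, 1 of 7 was called higher in the fragments on MOE430A, against 4.60% of all probe sets tested. It was Dpy30, at 6407 ± 216 (SD, n = 4) in the fragments against 4848 in the whole embryo (log2 0.46, adjusted p = 0.0225). On MOE430B 0 of 8 were called. No gene of these 4 lists was called between Ad and Pp on either array type.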

How the data were processed

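Array signal was measured in 10 samples. Per the submitters' processing notes the authors used MAS5, and the deposited unit is linear probe set intensity. The MAS5 version is not given in the sources used here. Array medians were 591 to 645 on MOE430A and 56.7 to 61.0 on MOE430B.

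Each array type was fitted alone in R 4.3.3 with limma 3.58.1, without its 64 control probe sets. A pseudocount at the 20th percentile of all values (247 and 10.5) was added before log2. Probe sets with a mean log2 value above the 40th percentile were kept (13575 and 13506), and arrays were centred on their median over kept probe sets. The model had 3 groups and 2 residual degrees of freedom, with eBayes, two-sided tests and the Benjamini-Hochberg threshold of 0.05 over kept probe sets. The method was tested on simulated data.

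The platform annotation gave 1 symbol to 20380 MOE430A and 14661 MOE430B probe sets, several to 691 and 245 and none to 1555 and 7605. Named members passed the threshold, had 2-fold gaps above the filter, were the brightest of a cluster or paralogue range, or were Hoxa10 or Hoxa11. Other members named with values were chosen after their values were seen: on MOE430A Hoxa5, the dimmer Hoxa9, Hoxa13, Hoxb1, Hoxb9, Hoxb13, Hoxc8, Hoxc13, Hoxd8 and Hoxd10 to Hoxd13, and on MOE430B Hoxd8. Members and lists were chosen with earlier results of these data known. Alternatives changed the normalization, pseudocount, filter, variance trend, arrays and replicate block. Array signals carry no counts, and the number of arrays limits the precision.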

Additional observations from a re-analysis of the deposited data

How the results depend on the processing

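On MOE430A the filter at the 60th percentile left 8 Hox probe sets. It removed Hoxa10 and Hoxd9 before they were tested, so that setting is not among their 11 alternatives below. The count of 4 Hox probe sets called lower in fragments on MOE430A was 2 with that filter and 6 with no filter. Leaving out 1 fragment array gave 3 to 5. Without Ad replicate 1 or 2 the brighter Hoxa9 probe set was lost, and without Pp replicate 2 Hoxd8 was added. The same Hoxa9 probe set also missed the threshold with no pseudocount (adjusted p = 0.0510) and with an intensity trend (0.0543). Hoxa10 kept its call in 11 of 11 alternatives (log2 -2.18 to -1.40), Hoxa11 in 12 of 12 (-1.54 to -1.09) and Hoxd9 in 11 of 11 (-1.04 to -0.70). With no filter as their setting, the dimmer Hoxa9 probe set (-2.87 to -1.61) and Hoxd10 (-2.97 to -1.41) kept theirs in 10 of 10 each. Ad against Pp gave 0 calls under every alternative run on both array types, and so did fragments against whole embryo on MOE430B.

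Signs turned only for differences that were not called, and the cause was not tested. Without centring, Hoxb4 and Hoxc6 on MOE430A gave -0.0071 and -0.019 against the whole embryo. Leaving out 1 array, Ad minus Pp ran from -0.012 to 0.11 for Hoxc6, from -0.011 to 0.073 for Hoxd9, from -0.082 to 0.10 for Hoxa5 on MOE430B and from -0.23 to 0.010 for Hoxd13 on MOE430B. Hoxa5 against the whole embryo ran from -0.076 to 0.016. Quantile normalization gave -0.0073 and 0.0030 for Hoxa5 in the 2 comparisons.

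Over all probe sets, the log2 difference between the Ad replicates correlated with that between the Pp replicates at r = -0.24 on MOE430A and -0.017 on MOE430B. On MOE430A same-numbered arrays thus tended to deviate in opposite directions, and what the arrays share was not tested. With the replicate block, 0 Hox probe sets were called between Ad and Pp on either array type, while calls over all probe sets went from 23 to 24 on MOE430A and from 15 to 29 on MOE430B. Pairing the numbers crosswise on MOE430A, added after seeing the data, gave 0 Hox calls among 47 in all, with 1 Hox probe set at an unadjusted p under 0.05. For the whole embryo no paired analysis was possible because it has no partner array. The fragment signal of 22 of 37 MOE430A members lay below the filter, which limits what their fragment levels can show.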
